A study of Mus musculus with 6 samples.

Results

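Glutathione S-transferases are the enzymes that join the tripeptide glutathione to electrophilic compounds, and 10 of their genes are described here in mouse liver: Gsta2, Gsta3 and Gsta4 of the alpha class, Gstm1, Gstm2, Gstm3 and Gstm4 of the mu class, Gstp1 of the pi class, Gstt1 of the theta class and the microsomal gene Mgst1. They were taken by symbol from the 54532 genes listed in each library, and each of the 10 was found and passed the filter on low values. The 6 livers were from male C57BL/6J mice of 8 weeks, labelled adult. In the paternal nicotine group the fathers of the 3 mice had been given nicotine, and in the paternal saline group the fathers of the 3 mice had been given saline; no treatment of the offspring themselves is recorded. The number of fathers and litters is not stated, so a p-value here covers the spread among these 6 mice alone.

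Cytosolic transferases work as dimers of the same or of related subunits, and the classes differ in which substrates they accept. The conjugates they make leave the hepatocyte through export pumps and are trimmed to mercapturic acids, while several of the enzymes also reduce organic peroxides with glutathione. Hepatocytes are the main site of this chemistry, and in rodents transcription of many of the genes responds to the antioxidant sensor NRF2, to the xenobiotic receptors CAR, PXR and AhR and to the growth hormone pattern that separates male from female liver.

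Values are RPKM, reads scaled to the size of the library and to the length of the gene in kilobases, as the authors deposited them. Between 61837267 and 70089315 reads stood behind each library. Across the genome, 8773 genes that averaged at least 1 RPKM were tested with limma on log2(RPKM + 1), a scale that understates the change of low genes. Adjusted p-values are Benjamini-Hochberg values over these 8773 genes, with a threshold of 0.05; 814 of them passed, which is 9.28%, with 5.39% lower and 3.89% higher in paternal nicotine livers. The acinar enzyme genes of the pancreas summed to 4612 RPKM in paternal nicotine replicate 2, against at most 5.40 RPKM in any other library, and counts of calls are also given without that library, where 185 genes passed.

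The upstream sequences of the genes are shown first for the members on which the results turn. In RefSeq's windows for GRCm38.p6, which run from 250 bases before to 50 bases after an annotated start, 9 of the 10 genes matched by symbol; Gsta4 did not. Each window was searched on both strands for the antioxidant response element core TGACNNNGC, the xenobiotic response element core GCGTG and the HNF1 half-site GTTAAT. Gsta3 and Mgst1 are printed because they are the members with the antioxidant core, and their transcripts differed very unequally between the groups. Gsta2 is printed as the other alpha class gene. Capitals mark a match, in the orientation of the gene.
Gsta3: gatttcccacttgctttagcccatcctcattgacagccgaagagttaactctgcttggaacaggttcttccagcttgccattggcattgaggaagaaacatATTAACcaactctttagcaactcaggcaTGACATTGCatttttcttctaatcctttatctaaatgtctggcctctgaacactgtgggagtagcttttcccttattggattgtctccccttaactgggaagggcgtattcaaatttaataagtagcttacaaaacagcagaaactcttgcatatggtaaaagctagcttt
Gsta2: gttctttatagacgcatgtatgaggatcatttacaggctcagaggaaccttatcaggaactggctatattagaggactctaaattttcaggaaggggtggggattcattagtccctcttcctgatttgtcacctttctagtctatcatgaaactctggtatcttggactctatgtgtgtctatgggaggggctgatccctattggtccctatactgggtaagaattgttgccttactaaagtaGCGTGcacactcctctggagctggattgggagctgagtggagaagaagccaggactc
Mgst1: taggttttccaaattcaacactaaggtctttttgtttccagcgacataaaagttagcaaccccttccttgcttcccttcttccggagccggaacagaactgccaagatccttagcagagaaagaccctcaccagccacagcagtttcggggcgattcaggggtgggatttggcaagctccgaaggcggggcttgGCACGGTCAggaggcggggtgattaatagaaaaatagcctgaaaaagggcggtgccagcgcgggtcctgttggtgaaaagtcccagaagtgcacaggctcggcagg

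The Gsta3 window lies at chr1:21240335-21240634 on the plus strand, the Gsta2 window at chr9:78347096-78347395 on the minus strand and the Mgst1 window at chr6:138140277-138140576 on the plus strand. The antioxidant core began at position -121 from the start in Gsta3, as TGACATTGC, and at position -56 in Mgst1, where it read GCACGGTCA because the match is on the opposite strand. Of 32851 windows of the same length in the table, 12.4% held this core. Gsta3 alone among the 9 windows held the HNF1 half-site, at position -149 on the opposite strand, and 7.10% of the windows in the table held it. The xenobiotic core stood at position -7 in Gsta2, at position -76 in Gstm1 and at position -13 in Gstp1, against 32.4% of windows in the table. No match of one motif overlapped a match of another in these genes, and the windows of Gstm2, Gstm3, Gstm4 and Gstt1 held none of the 3.

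Of the 10 genes, Gsta2, Gsta3, Gstm4 and Gstt1 fell in paternal nicotine livers and none rose by limma, while the other 6 did not pass the test. At an unadjusted p under 0.05 the counts were 6 lower and 0 higher; over all tested genes 26.3% were under that p, 15.3% lower and 10.9% higher, and further counts at an unadjusted p are to be read against these shares. Lower calls thus made up 4 of 10 genes here, against 5.39% of the genes tested. Each of the 10 averaged at least 5 RPKM. With only genes at that level tested, 486 of 4002 were lower, a larger share, and again 4 of the 10. Without paternal nicotine replicate 2 the count of lower members was 2, Gsta3 and Gstt1, with 2 animals left in that group. The fitted log2 fold change was negative for 9 of the 10 genes, with Gstm2 the exception, and its median was -0.62, against -0.02 over all tested genes, of which 52.7% were negative. Mgst1 was so close to 0 that its sign turned with median of ratios scaling, with quantile normalization and without paternal saline replicate 1, which left 8 negative values. The 3 libraries of each group did not overlap for Gsta2, Gsta3, Gsta4, Gstm4, Gstp1 and Gstt1, each lower in paternal nicotine livers; over all tested genes the groups did not overlap for 33.6%, and for 19.2% with paternal nicotine lower.

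**Figure D1:**
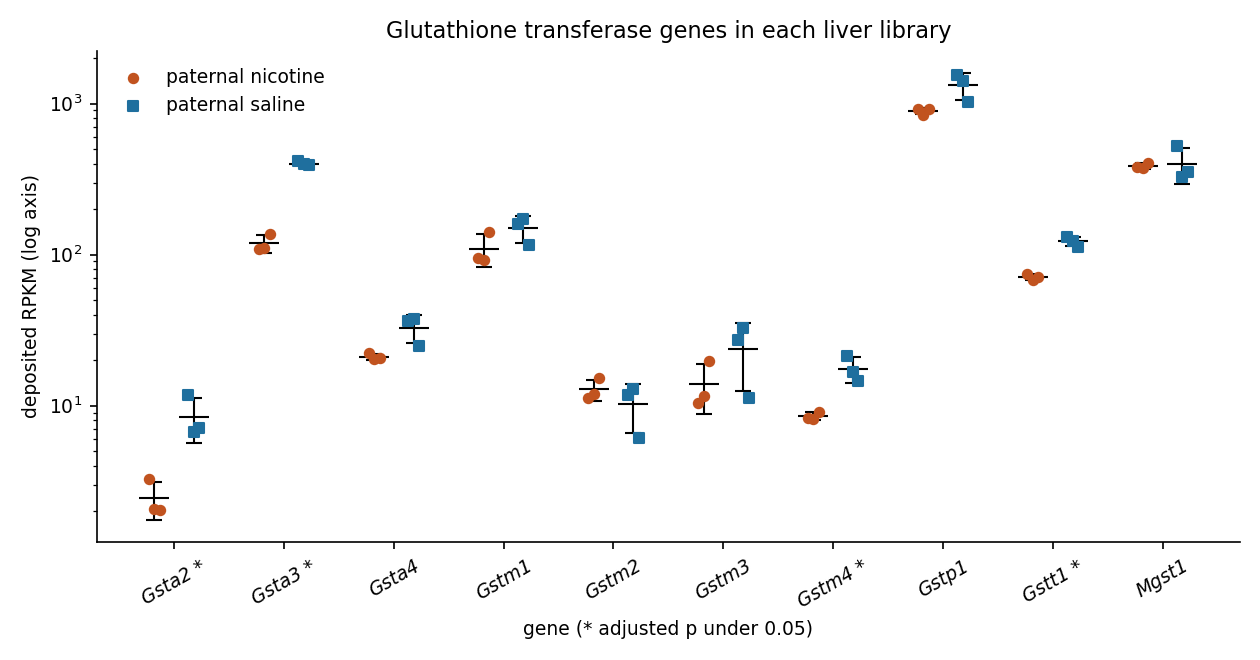
RPKM of the 10 genes on a log axis, with paternal nicotine libraries as circles left of paternal saline libraries as squares, 3 of each per gene; bars give the mean and SD and an asterisk marks an adjusted p under 0.05. Gsta3 libraries lie between 108.6 and 137.2 RPKM in paternal nicotine livers and between 391.4 and 413.6 RPKM in paternal saline livers, while the Mgst1 libraries of the groups overlap.

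Among the alpha class genes, Gsta3 and Gsta2 had the largest fold changes of the 10 genes. With a pseudocount of 1 Gsta3 was ahead, while Gsta2 was ahead with a pseudocount of 0.01, at -1.77 for Gsta2 and -1.76 for Gsta3, and by limma voom with the same rounded values. The Gsta3 product is known in the mouse for conjugating the epoxide of aflatoxin. The gene lies on the plus strand at chr1:21240589-21265661, apart from the other alpha class genes. Gsta3 had 108.6, 110.1 and 137.2 RPKM in paternal nicotine livers, against 413.6, 397.0 and 391.4 RPKM in paternal saline livers. The highest paternal nicotine library was well under the lowest paternal saline library. The means were 119 ± 16.1 RPKM in paternal nicotine livers and 401 ± 11.5 RPKM in paternal saline livers (SD, n = 3 each). Gsta3 fell by 1.76 on the log2 scale (SE 0.11; adjusted p = 0.00229 by limma), and it passed in each of the 15 alternatives run on its own row, with adjusted p-values from 0.00122 to 0.0234. Without paternal nicotine replicate 2, the library with pancreatic transcripts, its log2 fold change was -1.71 (limma adjusted p = 0.0153).

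Gsta2, another alpha class gene with peroxidase activity towards lipid hydroperoxides, was the lowest of the 10 in RPKM. It lies on the minus strand at chr9:78331018-78355788. It had 3.25, 2.07 and 2.03 RPKM in paternal nicotine livers, against 11.7, 6.64 and 7.07 RPKM in paternal saline livers, so the groups did not overlap and replicate 1 was the highest in both. Gsta2 fell by 1.44 on the log2 scale (SE 0.24; adjusted p = 0.0218 by limma). It passed in 11 of 15 alternatives, with adjusted p-values from 0.0151 to 0.0871 over them; without paternal nicotine replicate 2 its log2 fold change was -1.36 (limma adjusted p = 0.0871), without paternal nicotine replicate 3 the adjusted p was 0.0600 and without paternal saline replicate 3 it was 0.0569.

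The Gsta2 row shares sequence with its neighbours on the same chromosome: 49.8% of the 50-base windows of its transcripts also occur in another gene, 36.0% in Gsta1, 31.8% in Gm10639 and 26.9% in Gm3776. The authors' rule for reads that match several genes is not known from the sources used here, so the split between these rows is uncertain. Gsta1 had 1.73, 2.59 and 3.46 RPKM in paternal nicotine livers, against 1.35, 3.72 and 0.730 RPKM in paternal saline livers. Gm3776 was listed at 0, 4.02 and 4.47 RPKM in paternal nicotine livers, against 0, 2.46 and 0.481 RPKM in paternal saline livers. Neither row separated the groups (log2 fold change 0.39 for Gsta1, limma adjusted p = 0.577, and 0.81 for Gm3776, adjusted p = 0.566), and Gm3776 was listed at 0 in replicate 1 of both, where Gsta2 was highest. With the RPKM of the 4 rows summed, an alternative chosen after seeing the data, the log2 fold change was -0.50 and the call was lost (limma adjusted p = 0.325). The rows rest on different lengths, 2727 bases for Gsta2 and 1558 for Gsta1, so this is not a sum of reads.

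Gsta4, known for conjugating the lipid peroxidation aldehyde hydroxynonenal, lies on the plus strand at chr9:78182774-78209349. It had 22.3, 20.4 and 20.7 RPKM in paternal nicotine livers, against 36.2, 37.3 and 24.7 RPKM in paternal saline livers. The groups did not overlap, but paternal saline replicate 3 lay nearer to the paternal nicotine libraries than to the other paternal saline libraries. The log2 fold change was -0.59 (SE 0.17) and did not pass (limma adjusted p = 0.0858). Without paternal saline replicate 3 it was -0.77 and passed (limma adjusted p = 0.0238), the lowest of 15 alternatives whose adjusted p-values reached 0.222. No 50-base window of Gsta4 occurs in another gene.

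The mu class genes Gstm1 to Gstm4 stand with Gstm5, Gstm6 and Gstm7 in 1 cluster on chromosome 3, and of these 7 genes Gstm4 and Gstm6 fell. Gstm4 is at chr3:108040408-108044894 on the minus strand, and no 50-base window of it occurs in another gene. It had 8.26, 8.21 and 9.12 RPKM in paternal nicotine livers, against 21.4, 16.6 and 14.5 RPKM in paternal saline livers. The paternal nicotine libraries were close together and each was under the lowest paternal saline library. Gstm4 fell by 0.94 on the log2 scale (SE 0.15; adjusted p = 0.0179 by limma). The call held in 11 of 15 alternatives, with adjusted p-values from 0.0105 to 0.0739; it was lost without paternal nicotine replicate 1 (adjusted p = 0.0658) and without paternal nicotine replicate 2 (adjusted p = 0.0739).

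Gstm1, the mu class gene with the highest values in these livers, lies at chr3:108012255-108017973 on the minus strand. It had 95.4, 92.6 and 140.4 RPKM in paternal nicotine livers, against 160.6, 171.5 and 115.2 RPKM in paternal saline livers, and the groups overlapped. Gstm3, at chr3:107963696-107969283 on the minus strand, also overlapped between the groups, with 10.4, 11.7 and 19.7 RPKM in paternal nicotine livers, against 27.2, 32.9 and 11.2 RPKM in paternal saline livers. For both genes paternal nicotine replicate 3 lay above paternal saline replicate 3. The log2 fold change was -0.45 for Gstm1 (SE 0.22; adjusted p = 0.273 by limma) and -0.66 for Gstm3 (SE 0.44; adjusted p = 0.403 by limma).

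Gstm2, between Gstm3 and Gstm1 at chr3:107981702-107986453 on the minus strand, was the member with a positive fold change. It had 11.2, 12.0 and 15.1 RPKM in paternal nicotine livers, against 11.7, 12.9 and 6.06 RPKM in paternal saline livers. The groups overlapped, with paternal saline replicate 3 the lowest of the 6 libraries, and the log2 fold change of 0.35 did not pass (SE 0.28; adjusted p = 0.485 by limma). The ratio of Gstm1 to Gstm2 in RPKM was 8.50 ± 0.78 in paternal nicotine livers and 15.4 ± 3.17 in paternal saline livers (SD, n = 3 each). These values do not overlap, with 7.73 to 9.28 in paternal nicotine livers and 13.3 to 19.0 in paternal saline livers, although the levels of both genes do; no test was run on the ratio.

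**Figure D2:**
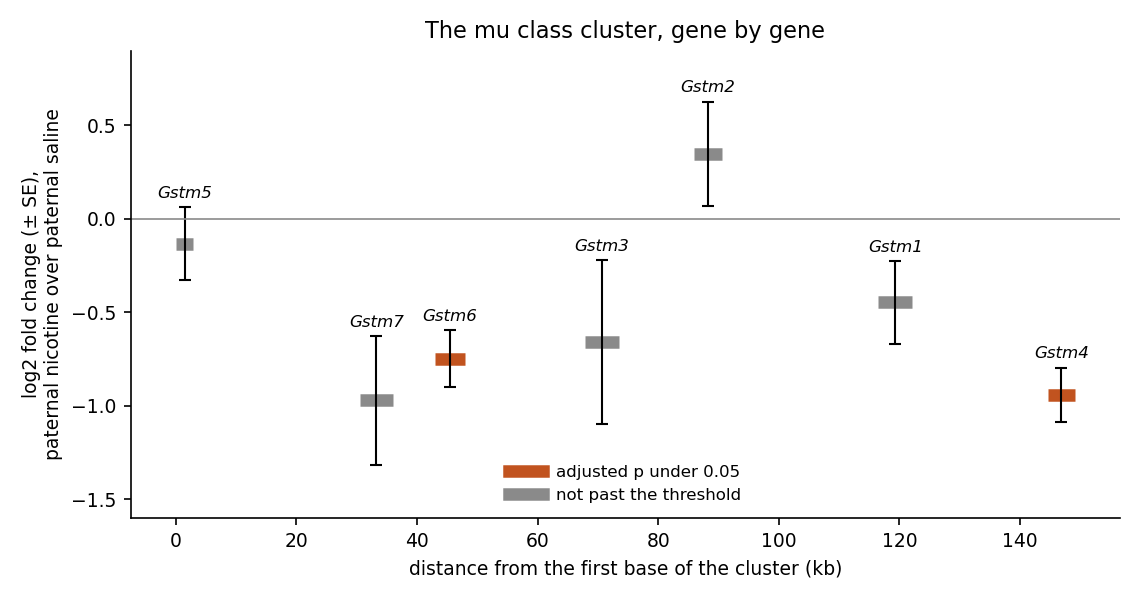
Log2 fold change of RPKM + 1, paternal nicotine over paternal saline, for the 7 mu class genes at their distance in kb from the first base of the cluster; bar width is the length of the gene and whiskers are the SE. Gstm4 at -0.94 and Gstm6 at -0.75 passed the test, while Gstm2 at 0.35 lies between Gstm3 at -0.66 and Gstm1 at -0.45, which did not pass.

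Of the other mu class genes, Gstm6 fell by 0.75 on the log2 scale, with 6.93 ± 1.13 RPKM in paternal nicotine livers and 12.3 ± 1.95 RPKM in paternal saline livers (SD, n = 3 each; limma adjusted p = 0.0365). Gstm7 had 9.65, 10.7 and 3.86 RPKM in paternal nicotine livers, against 16.6, 16.1 and 14.1 RPKM in paternal saline livers. Its groups did not overlap, and the spread of the paternal nicotine libraries went with an adjusted p of 0.143 by limma. Gstm5 had 1.95 ± 0.394 RPKM in paternal nicotine livers and 2.27 ± 0.774 RPKM in paternal saline livers (SD, n = 3 each), a difference within the spread (limma adjusted p = 0.710).

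The pi class gene Gstp1, whose product also binds the stress kinase JNK, had the highest deposited RPKM of the 10 genes. It lies at chr19:4035407-4037985 on the minus strand. Gstp1 had 919, 846 and 926 RPKM in paternal nicotine livers, against 1544, 1402 and 1030 RPKM in paternal saline livers. The groups did not overlap, but paternal saline replicate 3 stood closer to the paternal nicotine libraries. The means were 897 ± 44.4 RPKM in paternal nicotine livers and 1325 ± 266 RPKM in paternal saline livers (SD, n = 3 each). The log2 fold change of -0.54 did not pass (SE 0.16; adjusted p = 0.0974 by limma). Without paternal saline replicate 3 it was -0.72 and passed (limma adjusted p = 0.0337), the lowest of 15 alternatives whose adjusted p-values reached 0.250.

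Gstp1 and Gstm1 have pseudogenes of similar sequence that carried reads, and the stretches below show the bases at which they differ. They are taken from the annotated transcripts of GENCODE M21 on GRCm38 and cover coding bases 3 to 92 of Gstp1 and 1 to 90 of Gstm1, counted from the start codon. Capitals mark bases that differ from Gstp1 or from Gstm1.
Gstp1: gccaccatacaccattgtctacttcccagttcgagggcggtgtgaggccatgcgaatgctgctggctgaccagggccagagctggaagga
Gstp-ps: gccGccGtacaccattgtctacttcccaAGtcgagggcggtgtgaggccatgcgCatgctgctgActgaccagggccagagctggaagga
Gstm1: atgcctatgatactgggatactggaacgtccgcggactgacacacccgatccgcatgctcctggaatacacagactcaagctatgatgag
Gstm2-ps1: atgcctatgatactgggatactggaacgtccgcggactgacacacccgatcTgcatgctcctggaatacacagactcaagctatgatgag
Gstm2: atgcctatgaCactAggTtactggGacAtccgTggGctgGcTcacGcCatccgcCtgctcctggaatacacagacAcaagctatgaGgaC

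In the first of these stretches Gstp-ps, on chromosome 1, differs from Gstp1 at 6 of 90 bases. Gstp2, which is not printed, also differs from Gstp1 at 6 bases there. In the second, Gstm2-ps1 on chromosome 5 differs from Gstm1 at 1 base, while Gstm2 differs from Gstm1 at 15. Over the whole transcripts, 20.3% of the 50-base windows of Gstp1 occur in Gstp-ps and 33.7% in Gstp2, and 14.1% of those of Gstm1 occur in Gstm2-ps1. Gstm3 shares 28.8% of its windows with other genes, 9.83% with Gstm1. Of the windows of Gstp-ps, more occur in Gstp2, 71.1%, than in Gstp1, 60.5%.

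The pseudogene rows, chosen after their values were seen, were not low. Gstp-ps had 493, 443 and 615 RPKM in paternal nicotine livers, against 792, 816 and 619 RPKM in paternal saline livers. Gstm2-ps1 had 21.1, 20.2 and 27.5 RPKM in paternal nicotine livers, against 32.6, 31.4 and 25.7 RPKM in paternal saline livers. As for Gstp1 and Gstm1, paternal saline replicate 3 was the lowest paternal saline library and paternal nicotine replicate 3 the highest paternal nicotine library. The ratio of Gstp1 to Gstp-ps was 1.76 ± 0.22 in paternal nicotine livers and 1.78 ± 0.15 in paternal saline livers (SD, n = 3 each), a difference within the spread. Neither pseudogene passed, with a log2 fold change of -0.52 for Gstp-ps (limma adjusted p = 0.113) and -0.37 for Gstm2-ps1 (limma adjusted p = 0.187). Summing the RPKM of Gstp1, Gstp2 and Gstp-ps gave -0.54 (limma adjusted p = 0.0919). For the summed RPKM of Gstm1, Gstm3, Gstm2-ps1 and Gm8834 the log2 fold change was -0.47 (limma adjusted p = 0.270), so neither call changed.

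Gstp2, the neighbouring pi class gene, had 1.12 ± 0.306 RPKM in paternal nicotine livers and 1.51 ± 0.160 RPKM in paternal saline livers (SD, n = 3 each; limma adjusted p = 0.287). Gstp3, under the filter and not tested, was listed at 0 in the 3 paternal nicotine libraries, against 0.906, 1.19 and 2.77 RPKM in paternal saline livers, which correspond to 78, 111 and 248 reads.

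Gstt1 of the theta class, which acts on small halogenated molecules, fell with little spread in either group. It lies at chr10:75783813-75798584 on the minus strand, and none of its 50-base windows occurs in another gene. It had 74.2, 67.6 and 71.1 RPKM in paternal nicotine livers, against 131.2, 122.7 and 112.9 RPKM in paternal saline livers. Each paternal nicotine library was under each paternal saline library by a wide margin. Gstt1 fell by 0.78 on the log2 scale (SE 0.09; adjusted p = 0.00776 by limma) and passed in each of 15 alternatives, with adjusted p-values from 0.00443 to 0.0457. The value without paternal nicotine replicate 2 was -0.74 (limma adjusted p = 0.0457).

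Its class neighbours did not move as a block. Gstt3 fell by 1.04 on the log2 scale, with 2.70 ± 0.294 RPKM in paternal nicotine livers and 6.59 ± 0.765 RPKM in paternal saline livers (SD, n = 3 each; limma adjusted p = 0.00725). Gstt2 had 3.84 ± 0.716 RPKM in paternal nicotine livers and 3.03 ± 0.661 RPKM in paternal saline livers (SD, n = 3 each), with overlapping groups (limma adjusted p = 0.361). Gstt4 was listed at 0 in each of the 6 libraries.

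Mgst1, the membrane-bound trimer of the endoplasmic reticulum and outer mitochondrial membrane, gave no such difference. It lies at chr6:138140316-138156755 on the plus strand and shares no 50-base window with another gene. Mgst1 had 377.7, 375.9 and 404.0 RPKM in paternal nicotine livers, against 520.4, 326.5 and 353.2 RPKM in paternal saline livers. The groups overlapped, and paternal saline replicate 1 was the highest library. The means were 386 ± 15.7 RPKM in paternal nicotine livers and 400 ± 105 RPKM in paternal saline livers (SD, n = 3 each), with a log2 fold change of -0.02 (SE 0.18; adjusted p = 0.955 by limma). Beside it, the ratio of Gsta3 to Mgst1 in RPKM was 0.287 to 0.340 in paternal nicotine livers and 0.795 to 1.22 in paternal saline livers, so the proportion between these abundant transcripts differed more than the spread of either group.

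Of 22 further transferase and related genes, 20 were found and 12 could be tested, of which 5 fell and none rose by limma; at an unadjusted p under 0.05, 6 were lower and 0 higher. Besides Gstt3 and Gstm6 these were Gsto1, Gstk1 and Mgst3; without paternal nicotine replicate 2, Gstt3 and Gsto1 passed. Gsto1, an omega class enzyme that reduces dehydroascorbate, had 35.5 ± 3.24 RPKM in paternal nicotine livers and 62.3 ± 1.42 RPKM in paternal saline livers (SD, n = 3 each; log2 fold change -0.80, limma adjusted p = 0.00755). Gstk1, the kappa class enzyme of mitochondria and peroxisomes, had 25.5 ± 1.90 RPKM in paternal nicotine livers and 47.5 ± 5.08 RPKM in paternal saline livers (SD, n = 3 each; log2 fold change -0.87, limma adjusted p = 0.0102). Mgst3, a microsomal relative of Mgst1, had 7.91 ± 0.999 RPKM in paternal nicotine livers and 14.9 ± 3.39 RPKM in paternal saline livers (SD, n = 3 each; log2 fold change -0.82, limma adjusted p = 0.0468).

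Gstz1, the zeta class enzyme of tyrosine breakdown, varied more within the paternal saline group than between groups, with 20.0, 27.3 and 33.1 RPKM in paternal nicotine livers, against 57.1, 27.5 and 18.5 RPKM in paternal saline livers (limma adjusted p = 0.778). Alox5ap, a leukotriene pathway protein of the same membrane family that is known from myeloid cells, had 3.01, 4.26 and 6.96 RPKM in paternal nicotine livers, against 1.89, 2.72 and 3.31 RPKM in paternal saline livers, with a log2 fold change of 0.62 (limma adjusted p = 0.238). Ltc4s, Mgst2, Hpgds, Ptges, Gsto2 and Gstcd were under the filter in these livers, with no value above 0.521 RPKM. Among them Ptges had 0.157, 0.175 and 0.110 RPKM in paternal nicotine livers, against 0.0242, 0.0308 and 0.0233 RPKM in paternal saline livers. Hpgds had 0.0827, 0.203 and 0.242 RPKM in paternal nicotine livers, against 0.0581, 0.0537 and 0.0620 RPKM in paternal saline livers. For both the groups did not overlap, with paternal nicotine higher, while the groups of the others overlapped.

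**Figure D3:**
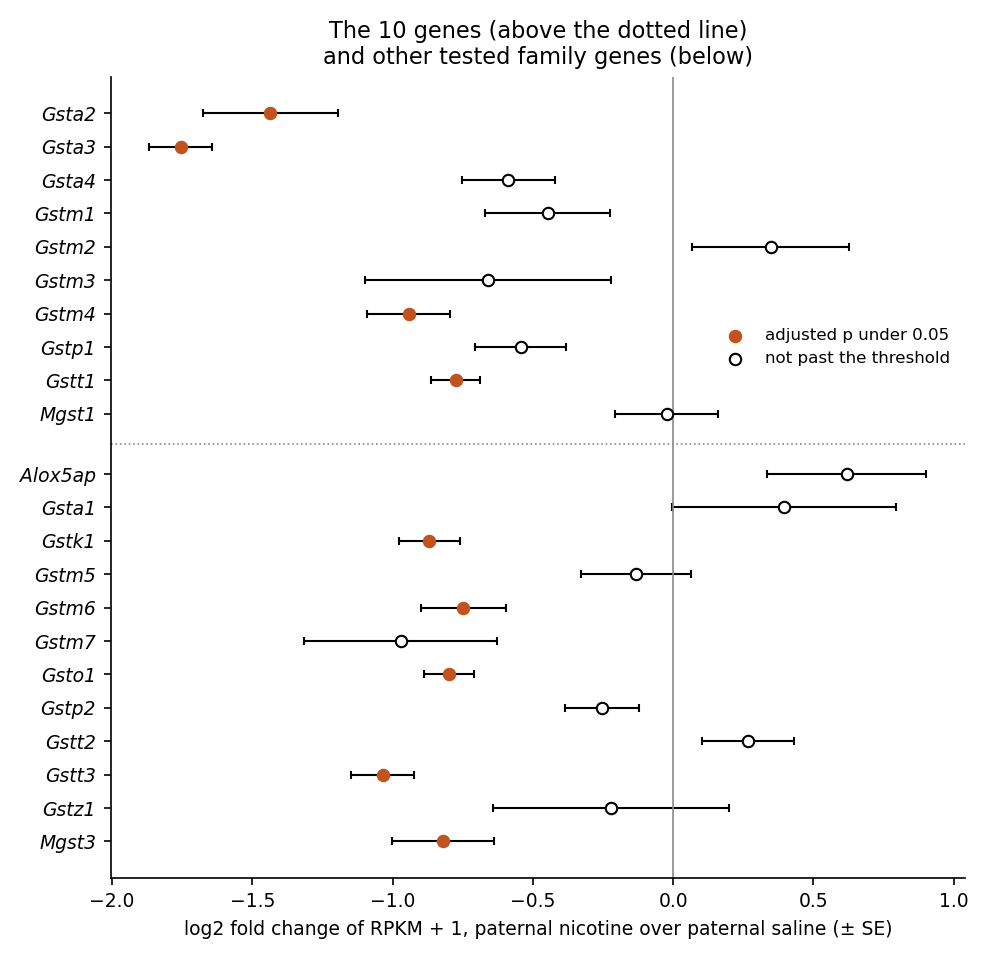
Log2 fold change of RPKM + 1 with its SE, paternal nicotine over paternal saline, for the 10 genes above the dotted line and the 12 other tested genes of the family below it; filled points have an adjusted p under 0.05. Filled points run from Gsta3 at -1.76 to Gstm6 at -0.75, each left of 0, while Gstm2 and Mgst1 are open.

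Counted as RPM, reads scaled to library size but not to gene length, the ratio between the groups was lowest in the alpha class of the 8 classes summed. The 4 alpha class genes summed to 745 ± 94.3 RPM in paternal nicotine livers and 2440 ± 83.1 in paternal saline livers (SD, n = 3 each), a ratio of 0.305 between the means. Most of these reads were of Gsta3, with at least 39688 in each library, against at most 4294 for Gsta4 and fewer for Gsta2 and Gsta1. The alpha sum is thus largely the result for Gsta3. The 4 theta class genes summed to 235 ± 14.7 RPM in paternal nicotine livers and 388 ± 29.5 in paternal saline livers. In neither class did the groups overlap. Nor did they in the pi, kappa and omega classes, while in the mu and zeta classes they overlapped. The ratio between the means was 0.537 for kappa, 0.570 for omega and 0.606 for theta. The 7 mu class genes summed to 568 ± 103 RPM in paternal nicotine livers and 812 ± 157 in paternal saline livers, and the 3 pi class genes to 680 ± 33.8 RPM in paternal nicotine livers and 1007 ± 200 RPM in paternal saline livers. The 3 microsomal genes summed to 2430 ± 99.5 RPM in paternal nicotine livers and 2526 ± 659 in paternal saline livers, close in mean and overlapping. Nearly all of these reads were of Mgst1, with at least 137088 in each library, against at most 1315 for Mgst3, whose own fall the sum does not show.

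The makeup of the family's reads also differed. Over 25 genes of the named classes there were 5059 ± 355 RPM in paternal nicotine livers and 7786 ± 1172 in paternal saline livers (SD, n = 3 each). Alpha class genes held 14.1% to 15.6% of them in paternal nicotine livers, against 27.8% to 34.5% in paternal saline livers. Microsomal genes held 46.5% to 49.0% in paternal nicotine livers, against 27.9% to 36.1% in paternal saline livers. These sums are made up of the same rows as the results above and add no independent evidence.

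**Figure D4:**
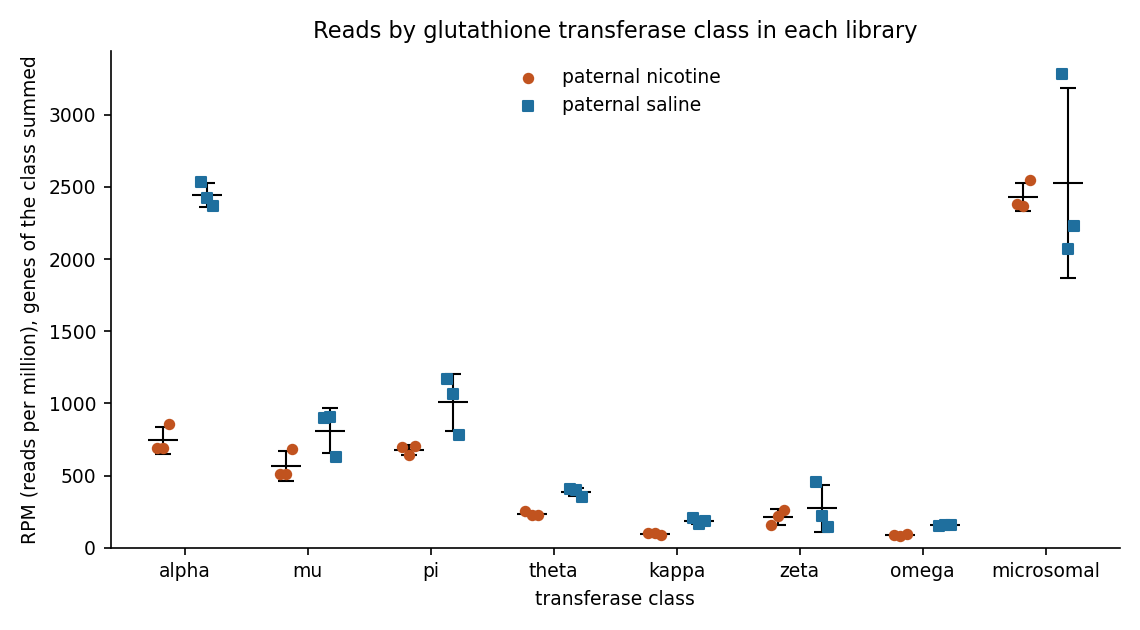
RPM summed over the genes of each class, with paternal nicotine libraries as circles left of paternal saline libraries as squares, and the mean and SD as bars (3 libraries each). The alpha class lies between 689 and 854 RPM in paternal nicotine livers and between 2367 and 2531 in paternal saline livers, while the microsomal class overlaps.

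Levels of different genes can be compared after dividing by exon length. The deposited RPKM of most genes used the summed length of all their transcripts, so the order was also taken per kilobase of union exon, with the same scaling to library size. On that scale Mgst1 was the most abundant transcript, at 1203 ± 48.9 in paternal nicotine livers and 1247 ± 328 in paternal saline livers (SD, n = 3 each). Gstp1 was next, at 439 ± 21.7 in paternal nicotine livers and 648 ± 130 in paternal saline livers. The union exons of Gstp1 hold 1548 bases, while its deposited RPKM rests on 757 bases. Over those 757 bases its mean was 1325 in paternal saline livers, above the Mgst1 mean per union exon. In paternal nicotine livers it was 897, below that of Mgst1. The order of Mgst1 and Gstp1 in paternal saline livers thus depends on the length chosen for Gstp1. Per kilobase of union exon, Gstm1 at 267 ± 65.5 in paternal nicotine livers then stood above Gsta3 at 161 ± 21.8 and Gstt1 at 121 ± 5.67. In paternal saline livers Gsta3, at 543 ± 15.6, stood above Gstm1 at 364 ± 73.0 and Gstt1 at 209 ± 15.6, and its range of 530 to 560 lay inside that of Gstp1. The remaining 5 genes were lower, between 5.68 for Gsta2 and 28.7 for Gsta4 in paternal nicotine livers and between 19.6 for Gsta2 and 44.5 for Gsta4 in paternal saline livers. In paternal saline livers Gsta4 and Gstm4 overlapped, as did Gstm3, Gstm2 and Gsta2.

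The libraries also differed within groups in a way that most of the 10 genes shared. Such counts over all tested genes are not given here. Paternal saline replicate 3 was the lowest of its group for 8 of the 10 genes, Gsta2 and Mgst1 being the others, and paternal nicotine replicate 3 was the highest of its group for 7.

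The nearest tested genes outside the family were followed on either side, some of them at a great distance. On both sides of Gsta3 they fell: Tmem14a had 0.410 ± 0.0981 RPKM in paternal nicotine livers and 1.96 ± 0.266 RPKM in paternal saline livers (SD, n = 3 each; log2 fold change -1.07, limma adjusted p = 0.00648), and Gm4956 had 0.705 ± 0.232 RPKM in paternal nicotine livers and 4.07 ± 0.948 RPKM in paternal saline livers (SD, n = 3 each; log2 fold change -1.57, limma adjusted p = 0.00799). They lie 10422 and 19585 bases from Gsta3. Ddt, 10399 bases from Gstt1, fell by 0.46 (limma adjusted p = 0.0448) and Dera, 282976 bases from Mgst1, fell by 0.61 (limma adjusted p = 0.0143), although Mgst1 itself did not pass. Those that did not pass were Csf1 and Ampd2, 203227 and 29168 bases from the mu class members, Rn7sk and Mto1, 7141 and 92420 bases from Gsta4 and Gsta2, Ndufv1 and Cdk2ap2, 22601 and 59197 bases from Gstp1, Mif, 60769 bases from Gstt1, and Rpl38-ps2, 2590205 bases from Mgst1.

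The supply of glutathione and the fate of its conjugates were followed through further lists of genes, chosen with earlier results of these data known. Of 6 tested genes of glutathione synthesis, 2 fell and none rose by limma, with 2 lower and 1 higher at an unadjusted p under 0.05. Gclc, the catalytic subunit of the rate-limiting ligase, had 57.6 ± 6.04 RPKM in paternal nicotine livers and 115 ± 20.9 RPKM in paternal saline livers (SD, n = 3 each; log2 fold change -0.97, limma adjusted p = 0.0185). Cth, which makes cysteine from cystathionine, had 66.7 ± 11.3 RPKM in paternal nicotine livers and 190 ± 19.9 RPKM in paternal saline livers (SD, n = 3 each; log2 fold change -1.50, limma adjusted p = 0.00648). Gclm, the modifier subunit of the same ligase, had 23.4 ± 4.77 RPKM in paternal nicotine livers and 13.4 ± 6.03 RPKM in paternal saline livers (SD, n = 3 each) and did not pass (limma adjusted p = 0.207); nor did Cbs, which makes cystathionine (adjusted p = 0.286).

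Among 15 tested genes that process or break down glutathione and its conjugates, 2 rose and 2 fell, with 3 lower and 2 higher at an unadjusted p under 0.05. Chac1, which degrades glutathione, rose to 11.8 ± 4.55 RPKM in paternal nicotine livers, against 1.81 ± 0.873 RPKM in paternal saline livers (SD, n = 3 each; log2 fold change 2.16, limma adjusted p = 0.0177), while its relative Chac2 fell by 0.64 (adjusted p = 0.0148). Anpep, an aminopeptidase of the mercapturate pathway, rose by 0.59 (limma adjusted p = 0.0421). Nat8f1, a gene of the N-acetyltransferase family, fell by 1.38 (adjusted p = 0.00648), and Lap3 and Nat8f2 did not pass. Of 6 tested export pumps, Abcc3 and Abcg2 fell, by 1.08 (limma adjusted p = 0.0178) and 0.56 (adjusted p = 0.0453), and none rose, with 4 lower and 0 higher at an unadjusted p under 0.05. Abcc2, the canalicular conjugate pump, had 20.2 ± 1.28 RPKM in paternal nicotine livers and 27.9 ± 6.21 RPKM in paternal saline livers (SD, n = 3 each; limma adjusted p = 0.170), and Abcb11 was just short of the threshold (adjusted p = 0.0510).

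Of 22 tested redox enzymes that use or serve glutathione and thioredoxin, 2 rose and 2 fell, and the median log2 fold change was -0.17. At an unadjusted p under 0.05, 5 were lower and 3 higher. Txnrd1, thioredoxin reductase, rose by 0.55 (limma adjusted p = 0.0207) and Srxn1, sulfiredoxin, rose by 0.60 (adjusted p = 0.0242). Cat, peroxisomal catalase, had 372 ± 48.1 RPKM in paternal nicotine livers and 737 ± 148 RPKM in paternal saline livers (SD, n = 3 each; log2 fold change -0.97, limma adjusted p = 0.0266), and Glrx5, a mitochondrial glutaredoxin, fell by 0.55 (adjusted p = 0.0281). Gpx1, the main peroxidase that uses glutathione, had 524 ± 61.3 RPKM in paternal nicotine livers and 658 ± 81.6 RPKM in paternal saline livers (SD, n = 3 each; limma adjusted p = 0.183). Txn1, thioredoxin, had 253 ± 11.9 RPKM in paternal nicotine livers and 252 ± 14.6 RPKM in paternal saline livers (SD, n = 3 each; adjusted p = 0.983).

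Targets of NRF2 outside the family moved in both directions, with 3 higher and 4 lower among 26 tested and a median of -0.11. At an unadjusted p under 0.05, 7 were lower and 4 higher. Hmox1, heme oxygenase, rose to 47.6 ± 3.12 RPKM in paternal nicotine livers, against 12.0 ± 2.99 RPKM in paternal saline livers (SD, n = 3 each; log2 fold change 1.92, limma adjusted p = 0.00648), and Txnrd1 and Srxn1, given above, are the other risers. Ephx1, microsomal epoxide hydrolase, fell by 1.02 (limma adjusted p = 0.0113) and Ces1g, a carboxylesterase, fell by 1.25 (adjusted p = 0.00476), beside Gclc and Abcc3. The ferritin genes Fth1 and Ftl1, the highest of the list, did not pass. Nfe2l2, the gene of NRF2 itself, had 8.90 RPKM on average in paternal nicotine livers and 10.8 RPKM in paternal saline livers (limma adjusted p = 0.436).

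Among 22 tested regulators of transferase transcription, 2 fell and none rose by limma, a share near the 9.28% of all tested genes, with 7 lower and 2 higher at an unadjusted p under 0.05. Ghr, the growth hormone receptor, had 16.6 ± 0.317 RPKM in paternal nicotine livers and 28.4 ± 4.48 RPKM in paternal saline livers (SD, n = 3 each; log2 fold change -0.73, limma adjusted p = 0.0232), and Nr1h4, the bile acid receptor FXR, fell by 0.45 (adjusted p = 0.0452). Cebpa, a hepatocyte transcription factor, had 307 ± 6.89 RPKM in paternal nicotine livers and 405 ± 34.8 RPKM in paternal saline livers (SD, n = 3 each) and lay at the threshold without passing it (limma adjusted p = 0.05002). Cebpb overlapped between the groups (adjusted p = 0.535).

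Of 17 tested CAR and PXR targets, 1 rose and 4 fell, with a median of -0.39 and, at an unadjusted p under 0.05, 6 lower and 2 higher. Cyp3a11, the main mouse enzyme of its subfamily in liver, had 280 ± 38.4 RPKM in paternal nicotine livers and 788 ± 286 RPKM in paternal saline livers (SD, n = 3 each; log2 fold change -1.44, limma adjusted p = 0.0309). Cyp2c29 fell by 1.33 (limma adjusted p = 0.00648), Cyp2c55 by 1.10 (adjusted p = 0.0169) and the sulfotransferase Sult1d1 by 2.12 (adjusted p = 0.00648), while Cyp3a13 rose by 0.88 (adjusted p = 0.0489); Ugt1a1 and Cyp2c54 did not pass. Among male-biased hepatocyte genes, 7 of 21 tested fell and none rose by limma, with 11 lower and 2 higher at an unadjusted p under 0.05. The transporter gene Slco1a1 had 2.69 ± 0.134 RPKM in paternal nicotine livers and 19.1 ± 3.28 RPKM in paternal saline livers (SD, n = 3 each; log2 fold change -2.43, limma adjusted p = 0.00156), and the others named by lowest p were Cyp2f2, Cyp2d9, Ugt2b1, Selenbp2 and Elovl3, lower by 0.76 to 1.77 on the log2 scale; Mup20 and Serpina1e did not pass. Of 27 female-biased genes 20 were under the filter and not tested, A1bg among them at 0.832, 1.06 and 1.69 RPKM in paternal nicotine livers, against 0.154, 0.0836 and 0.0717 RPKM in paternal saline livers. Of the 7 tested, Cyp4a10 and Cyp4a14 fell by 1.63 and 1.72 (limma adjusted p = 0.0236 and 0.0238) and none rose, with 2 lower and 0 higher at an unadjusted p under 0.05.

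Other conjugating enzymes had the most members past the threshold among the 10 lists: 13 of 28 tested fell and none rose by limma, with 15 lower and 1 higher at an unadjusted p under 0.05 and a median of -0.81. Inmt, a methyltransferase of indoleamines, had 66.9 ± 7.68 RPKM in paternal nicotine livers and 413 ± 61.4 RPKM in paternal saline livers (SD, n = 3 each; log2 fold change -2.60, limma adjusted p = 0.00156). Gnmt, glycine N-methyltransferase, had 743 ± 38.1 RPKM in paternal nicotine livers and 1543 ± 186 RPKM in paternal saline livers (SD, n = 3 each; log2 fold change -1.05, limma adjusted p = 0.00666). Ugt2b36, Ugt2b34 and Sult1b1 fell by 1.40, 1.07 and 1.38 (limma adjusted p = 0.00537, 0.00710 and 0.00476).

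**Figure D5:**
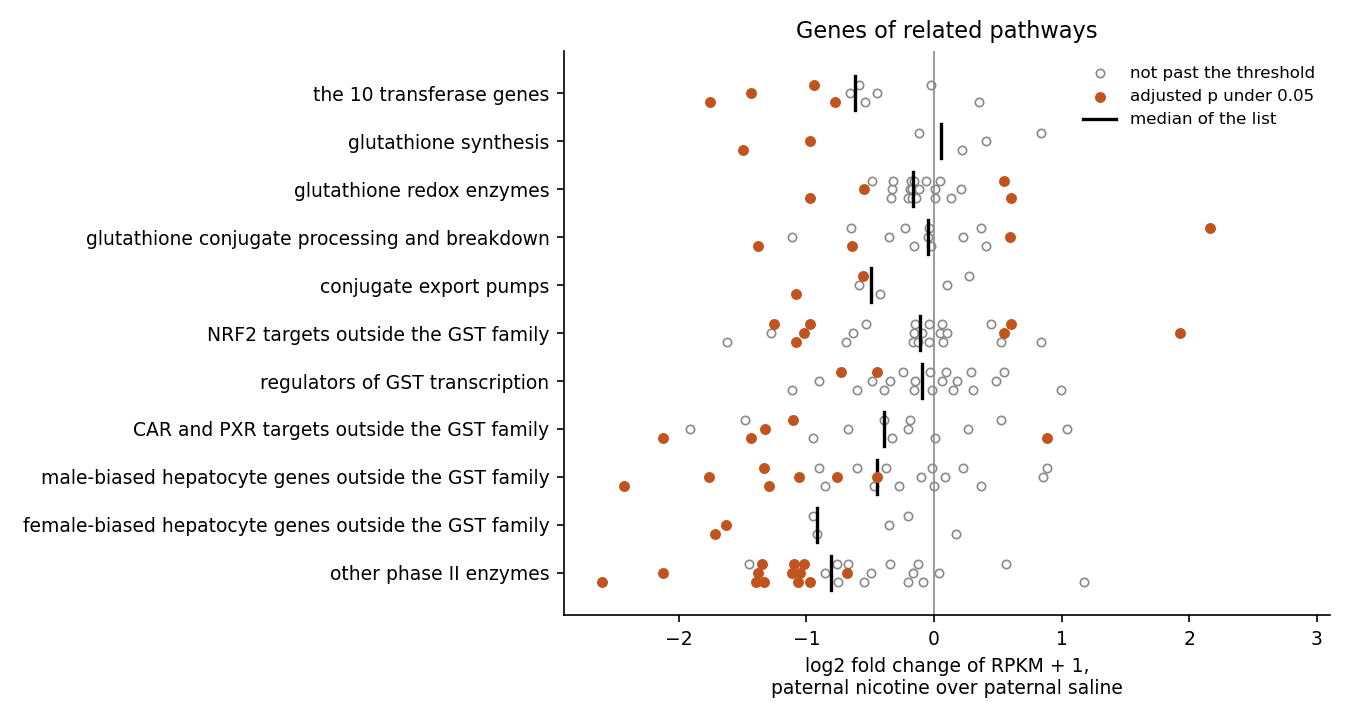
Log2 fold change of RPKM + 1, paternal nicotine over paternal saline, of each tested gene in the 10 transferase genes and 10 related lists; filled points have an adjusted p under 0.05 and the black stroke is the median of the list. The transferase genes have a median of -0.62 and other phase II enzymes -0.81, while NRF2 targets have filled points on both sides of 0 and a median of -0.11.

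Without paternal nicotine replicate 2 fewer genes of these lists passed. In glutathione synthesis 1 fell, Cth, and in conjugate processing 1 fell, Nat8f1. None passed among redox enzymes, export pumps, regulators and female-biased genes, although the log2 fold changes without that library were -1.08 for Abcc3, -0.96 for Cat, -0.73 for Ghr and 0.54 for Txnrd1, close to those over the 6 libraries. Of the NRF2 targets 1 rose, Hmox1, and 1 fell, Ces1g. Cyp2c29 and Sult1d1 fell among CAR and PXR targets and Slco1a1 and Cyp2f2 among male-biased genes, and 7 other phase II enzymes fell, Inmt, Gnmt, Ugt2b34 and Ugt2b36 among them.

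Marker genes passed the test for some cell types and not for others. Hepatocyte markers (11 of 12 found, none at 0 in any library) summed to 19409 to 21055 RPKM in paternal nicotine livers and 27267 to 35347 RPKM in paternal saline livers; of 11 tested, Alb and Cyp3a11 fell and Fgb, a fibrinogen chain, rose to 4523 ± 813 RPKM in paternal nicotine livers, against 1357 ± 379 RPKM in paternal saline livers (SD, n = 3 each; limma adjusted p = 0.0129). Without Alb and Fgb the sums were 3156 to 4213 RPKM in paternal nicotine livers and 3433 to 7751 RPKM in paternal saline livers. Without paternal nicotine replicate 2 none of these 3 calls held. Of 14 tested periportal markers 8 fell and none rose by limma, with 8 lower and 1 higher at an unadjusted p under 0.05. Of 14 tested pericentral markers 2 fell, Aldh1a1 and Car3, with 5 lower and 0 higher at an unadjusted p under 0.05. Without paternal nicotine replicate 2 the counts of limma calls were 5 periportal and 1 pericentral. Without Alb, periportal markers summed to 2032 to 2085 RPKM in paternal nicotine livers and 2483 to 3003 RPKM in paternal saline livers. Pericentral markers summed to 1465 to 1936 RPKM in paternal nicotine livers and 1669 to 2927 RPKM in paternal saline livers, with no marker at 0.

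Cholangiocyte markers summed to 22.1 to 22.6 RPKM in paternal nicotine livers and 9.58 to 12.7 RPKM in paternal saline livers. Of 5 tested, Sox9 and Spp1 rose, and neither passed without paternal nicotine replicate 2, with log2 fold changes of 1.48 for Sox9 and 0.69 for Spp1 (limma adjusted p = 0.0728 and 0.122). The other 8 cholangiocyte markers summed to 4.47 to 6.21 RPKM in paternal nicotine livers and 2.65 to 4.59 RPKM in paternal saline livers. Neutrophil markers summed to 26.1 to 85.9 RPKM in paternal nicotine livers and 5.94 to 7.06 RPKM in paternal saline livers, with Ly6g and Mpo among those at 0 in some libraries; 1 of 3 tested, S100a8, rose. Macrophage markers summed to 435 to 1376 RPKM in paternal nicotine livers and 438 to 861 RPKM in paternal saline livers, and none of 12 passed. None passed among 10 tested endothelial markers and 8 of stellate cells and fibroblasts. The same held for 5 erythroid markers and 2 of T, NK and B cells. The summed levels of these 4 lists overlapped between the groups. The part of any of these cell types in the differences of the transferase genes was not tested. In bulk liver RNA, fewer cells of a type and less RNA per cell cannot be told apart.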

How the data were processed

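Total liver RNA of 3 paternal nicotine and 3 paternal saline mice was extracted with Trizol and sequenced on the Illumina system, per the labels' protocols; groups and replicate numbers come from the labels. The authors deposited 1 table of RPKM values per library. CASAVA, TopHat and the build mm8 are named, without roles, per the submitters' processing notes; which tool counted reads, over which annotation, with or without strand, and what was done with reads matching several genes is not stated in those sources.

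GENCODE M21 on GRCm38 matched 99.93% of the identifiers and supplied symbols and positions. Genes without a read hold a placeholder (the largest is 1.6e-08 RPKM), taken here as 0. The placeholders gave library totals and showed that the lengths used were, for 98.9% of genes without a read, those of all transcripts summed; a deposited length column was not used. With these totals, 25530 of 25531 genes with a read gave whole reads within 0.01, after a search of the length for 1199 genes. Reads are not independent molecules, and the precision of a comparison is set by 3 animals per group.

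The test was limma 3.58.1 in R 4.3.3 (lmFit, then eBayes with trend and robust set) across 8773 genes that averaged at least 1 RPKM, on log2(RPKM + 1); it was tested on simulated data. The 10 genes, the lists of pathway and marker genes and the alternatives were chosen with earlier results of these data known. The text names every transferase gene found, in each pathway list up to 6 genes of lowest p past the threshold and the 2 highest that did not pass, and the nearest tested gene on either side; Nfe2l2, the pseudogenes, Gm3776, A1bg and genes named within marker lists lie outside this rule. A gene that the rule takes is not reported here. Shared sequence was measured as 50-base windows of GENCODE M21 transcripts, on either strand. Promoter windows are RefSeq's (GRCm38.p6). Alternatives were other scalings, pseudocounts of 0.1 and 0.01, no filter, a mean of at least 5 RPKM and eBayes without trend and robust. Further ones were a replicate block, leaving out each library, limma voom on the recovered reads and sums over classes. Sums with copies of similar sequence, and list counts by voom or without paternal nicotine replicate 2, were added after seeing the data. Figures were drawn with matplotlib 3.10.9.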

Additional observations from a re-analysis of the deposited data

How the results depend on the processing

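The count of 4 lower members was 4 under median of ratios scaling, quantile normalization, both other pseudocounts, the stricter filter, eBayes without trend and robust and limma voom; it was 3 with a replicate block and 2 without a filter on low values, where 25531 genes were tested. Leaving out each library in turn gave 2 to 5 lower members; 0 members were higher in every alternative run. The genes called numbered 814, 367 without a filter, 383 with the replicate block and 185 to 658 when a library was left out. Same-numbered libraries of the groups did not deviate together, with correlations of their deviations of 0.0071, 0.0564 and 0.0494, so the numbers are not taken as pairs; under the block Gstm4 had an adjusted p of 0.0548. Without a filter the adjusted p was 0.0669 for Gsta2 and 0.0556 for Gstm4. By limma voom no transferase gene and no gene of the synthesis, export, regulator, male-biased, female-biased and phase II lists was higher either, and Cyp3a13 lost its call. With the RPKM of the rows of a class summed, the log2 fold change was -1.61 for the alpha class (limma adjusted p = 0.00213) and -0.76 for theta (0.00847). It was -0.55 for pi (limma adjusted p = 0.0952), -0.05 for microsomal genes (0.892) and -0.50 for mu (0.203), which loses the call of Gstm4. The cause of these differences was not tested, apart from the larger or smaller numbers of genes and samples that the alternatives bring with them. A p that misses the threshold with 3 animals per group does not show that levels were equal.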
